A study of Mus musculus with 12 samples.

Results

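The muscle microRNAs miR-1a and miR-133a were followed in mouse quadriceps through 6 rows of a small RNA-seq count table of 1966 mature miRNAs. The rows were chosen by name: mmu-miR-1a-3p, its facing arms mmu-miR-1a-1-5p and mmu-miR-1a-2-5p, both arms of miR-133a (mmu-miR-133a-3p and mmu-miR-133a-5p), and mmu-miR-1b-5p, which is annotated on the strand opposite to miR-1a-3p. The species prefix is left out from here on. The table holds 12 libraries of quadriceps from wild-type C57BL/6J mice, with 3 mice at each of postnatal days 1, 5, 14 and 90 (P1, P5, P14 and P90). No allele or treatment separates the groups, whose labels differ by age alone. The age panel asks which miRNAs change as muscle matures after birth.

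miRNAs are cut from hairpin precursors, and each hairpin gives a 5′ arm and a 3′ arm, of which 1 is usually kept and loaded into the silencing complex. miR-1 and miR-133a are made together from shared primary transcripts in skeletal and cardiac muscle, where myogenic transcription factors switch them on. miR-1 is known for promoting muscle differentiation and miR-133a for restraining serum response factor, and both are the 3′ arms of their hairpins. A related pair, miR-206 and miR-133b, comes from the Lincmd1 locus and is expressed in developing and regenerating skeletal muscle. miR-206-3p carries the seed of miR-1a-3p, the bases that pair with targets, and miR-133b-3p carries the seed of miR-133a-3p.

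The arms come from 2 loci. In GRCm38.p6, Mir1a-1 lies on chromosome 2 at 180389048 to 180389124 and Mir133a-2 at 180398379 to 180398482, both on the plus strand with 9254 bases between them. Both fall in introns of the long noncoding gene Mir1a-1hg.

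RefSeq held the mature sequence of 1 of the 6 members, the chromosome 2 arm miR-1a-1-5p, from 180389057 to 180389079. It is shown because it is the arm that reports the chromosome 2 locus. It stands beside the 5′ arm of miR-206 and the 3′ arms of miR-206 and miR-133b, which are set against miR-1a-3p and miR-133a-3p in the results. Capitals mark the seed, bases 2 to 8 from the 5′ end.
miR-1a-1-5p: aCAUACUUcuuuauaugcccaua
miR-206-5p: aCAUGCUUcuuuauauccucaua
miR-206-3p: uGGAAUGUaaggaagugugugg
miR-133b-3p: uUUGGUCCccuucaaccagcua
miR-1a-1-5p and miR-206-5p differed at 3 of 23 bases, A5G, G17C and C19U, counted from the 5′ end with the base of miR-1a-1-5p first. A5G lies in the seed.

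The other locus is on chromosome 18, where Mir133a-1 lies at 10782909 to 10782976 and Mir1a-2 at 10785481 to 10785552, on the minus strand with 2504 bases between them. Mir1a-2 falls in an intron and Mir133a-1 in an exon of the long noncoding gene Mir133a-1hg, and both sit inside introns of the protein-coding gene Mib1 on the other strand. Mir1b is annotated on the plus strand across Mir1a-2, from 10785446 to 10785567. Since both loci give the same 3′ arm of miR-1a and the same arms of miR-133a, the rows miR-1a-3p, miR-133a-3p and miR-133a-5p do not say which locus was used. The 5′ arms of miR-1a differ between the loci and do.

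Library totals lay between 20363495 and 33771032 counts up to P14 and were larger in the adult, between 43776307 and 53126984. Of the 1966 miRNAs, 809 passed the filter on low counts, the 6 members among them. At P90 the trimmed mean of M-values (TMM) scaling factors were 0.247 to 0.384, against 1.24 to 1.72 at the other ages. Fold changes against P90 therefore depend on the scaling, while shares of a library and ratios within a library do not use it. The 6 skeletal muscle marker miRNAs, among them miR-1a-3p and miR-133a-3p themselves, took 24.0% to 34.2% of counts at the earlier ages and 55.7% to 58.5% at P90. Most of the P90 sum was miR-1a-3p, at 53.0% to 56.8%. The markers outside the members had lower mean shares at P90 than at P1. They went from 2.78% to 0.0413% for miR-206-3p and from 0.0375% to 0.00913% for miR-133b-3p. miR-499-5p went from 0.129% to 0.00163% and miR-208b-3p from 0.00114% to 1.67e-05%. At P90 miR-1a-3p and miR-1b-5p took means of 54.8% and 27.5% of counts, so a lower share need not be a lower amount. With TMM scaling, the log2 fold change from P1 to P90 was -3.78 for miR-206-3p, -3.99 for miR-499-5p and -3.85 for miR-208b-3p. That of miR-133b-3p was 0.28 (edgeR's quasi-likelihood test, adjusted p = 0.234).

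miR-1a-3p was the most abundant row in each of the 12 libraries, and its share was highest in the adult. It took 26.8%, 22.2% and 26.2% of counts at P1, and 30.2%, 30.8% and 28.8% at P5. The P14 libraries held 22.7%, 16.0% and 22.8%, and the P90 libraries 53.0%, 54.5% and 56.8%. No P90 library came near the others, P14 was lowest and overlapped P1, and P5 lay above both without overlap. The means were 25.1% ± 2.49, 29.9% ± 1.04, 20.5% ± 3.87 and 54.8% ± 1.93 (SD, n = 3) from P1 to P90. The total includes miR-1b-5p, whose counts are uncertain, and without the rows antisense to other miRNAs the means were 29.3%, 36.0%, 23.8% and 76.3%. The shares differed between ages (exact permutation test over all 15400 partitions of the libraries, on the sum of squares between ages, adjusted p = 0.000341 over 7 shares). In whole tissue, a higher share cannot be told apart from a larger part of the RNA coming from muscle fibres.

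miR-133a-3p, the partner on the same transcripts, followed another course. Its share was 0.882%, 0.856% and 0.822% at P1 and 1.12%, 0.878% and 1.19% at P5. It was 3.24%, 4.56% and 4.23% at P14, and 2.69%, 1.54% and 1.69% at P90. P14 held the highest shares and P90 the next, with no overlap between them or with the earlier ages, while P1 and P5 overlapped. The means were 0.853% ± 0.0299, 1.06% ± 0.162, 4.01% ± 0.683 and 1.97% ± 0.630 (exact permutation test, adjusted p = 0.000341, n = 3 per age). Among all rows it ranked between places 21 and 25 in the newborn, between 14 and 20 at P5, and in place 3 or 4 in each P14 and P90 library. The lower share at P90 than at P14 turned around when miR-1a-3p and miR-1b-5p were taken out of the total: miR-133a-3p then held 1.37%, 1.93%, 5.79% and 11.05% of what remained, from P1 to P90.

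miR-133a-5p, the arm usually discarded, was far scarcer. It held 0.0843%, 0.0802% and 0.0957% of counts at P1 and 0.0977%, 0.0920% and 0.0883% at P5. It held 0.162%, 0.145% and 0.148% at P14 and 0.0668%, 0.0595% and 0.0575% at P90. P14 was the highest and P90 the lowest, neither overlapping another age, and P1 and P5 overlapped (exact permutation test, adjusted p = 0.000341). With miR-1a-3p and miR-1b-5p out of the total, the means were 0.140%, 0.169%, 0.221% and 0.349% from P1 to P90, so that P90 became the highest age. Counting error was small beside these differences, with a widest 95% Wilson margin of 0.0182 percentage points for miR-1a-3p, 0.00874 for miR-133a-3p and 0.00167 for miR-133a-5p. These intervals cover counting error only.

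**Figure D1:**
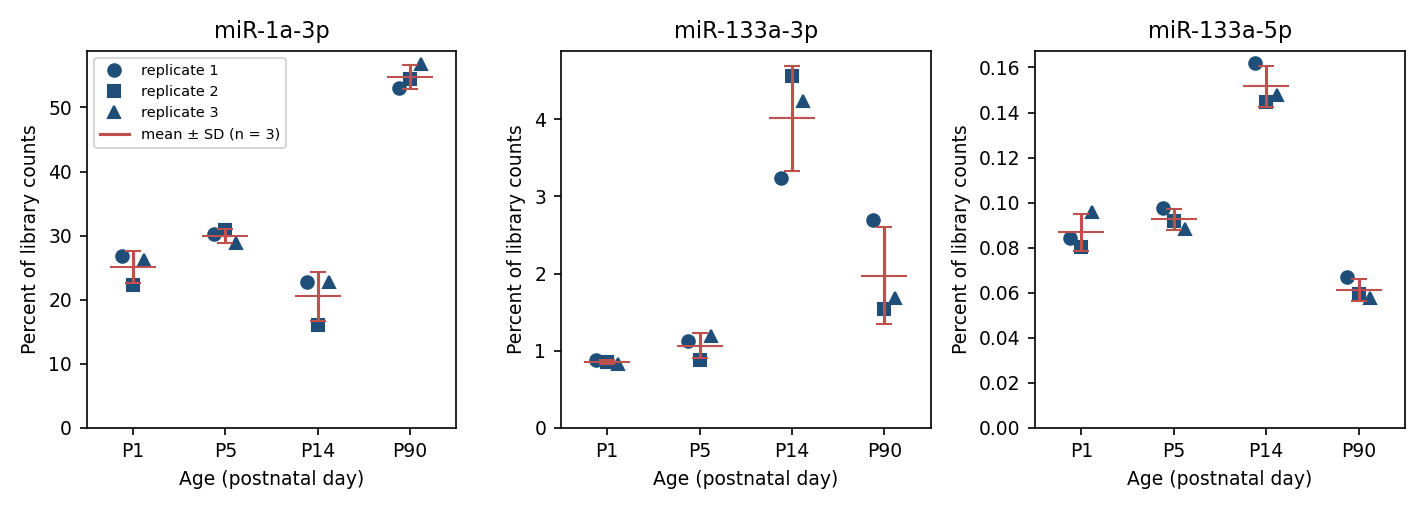
Share of library counts (percent, y axis) of miR-1a-3p, miR-133a-3p and miR-133a-5p by postnatal age (x axis). Each point is 1 library, marked by replicate, and the red bars give the mean ± SD of 3 libraries. miR-1a-3p stood at 53.0% to 56.8% at P90, while both arms of miR-133a peaked at P14.

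The ratio of the partners singled out P14. miR-1a-3p exceeded miR-133a-3p 30.4-, 26.0- and 31.9-fold in the P1 libraries and 27.0-, 35.1- and 24.3-fold at P5. At P14 the excess was 6.99-, 3.52- and 5.39-fold, and at P90 it was 19.7-, 35.5- and 33.7-fold. The P14 libraries lay below all 9 others, and the other 3 ages overlapped one another. The geometric means were 29.3, 28.4, 5.10 and 28.6 (exact permutation test on log2 ratios, p = 0.0179, adjusted p = 0.0403 over 9 ratios). On the log2 scale the ratio fell by 2.48 (SE 0.31) between P5 and P14, and P90 exceeded P14 by 2.49 (SE 0.31). P90 differed from P1 by -0.03 (SE 0.31), within the spread between libraries. Each pair of ages that held P14 gave an exact permutation p of 0.1, the smallest that 3 libraries against 3 allow, so no pair of ages could pass 0.05 alone.

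The P14 and P90 libraries also differed in base composition, in opposite directions. Over 318 miRNAs with a RefSeq sequence, the log2 share of counts, centred for each miRNA over the 12 libraries, had a slope of 0.380 to 0.565 per 10 percentage points of GC content at P14. The slope was -0.368, -0.604 and -0.547 in the P90 libraries and lay between -0.00815 and 0.0760 in those of P1 and P5. Its part in the ratio of miR-1a-3p to miR-133a-3p, and in the changes at P90, was not tested, since neither had a sequence in the table used.

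The 2 arms of miR-133a moved apart with age. The 3′ arm exceeded the 5′ arm 10.5-, 10.7- and 8.59-fold at P1 and 11.5-, 9.54- and 13.4-fold at P5. The excess was 20.0-, 31.5- and 28.6-fold at P14 and 40.4-, 25.8- and 29.3-fold at P90. All P14 and P90 libraries lay above all P1 and P5 libraries, with overlap inside each of these pairs of ages. The geometric means were 9.86, 11.4, 26.2 and 31.3 (exact permutation test, p = 0.00292, adjusted p = 0.00877), and the difference between P14 and P5 was 1.21 (SE 0.23) on the log2 scale. From P1 to P90 the ratio was 3.17-fold higher. Both arms come from the same hairpins and were counted in the same libraries.

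**Figure D2:**
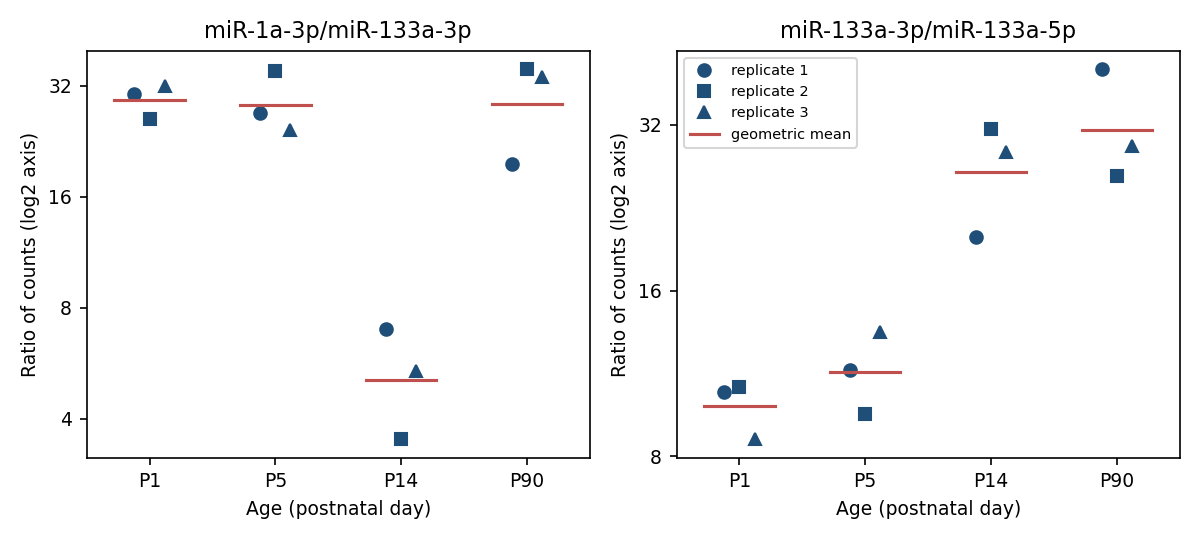
Ratios of counts within each library (y axis, log2 scale) by postnatal age (x axis), for miR-1a-3p over miR-133a-3p and for the 3′ over the 5′ arm of miR-133a. Points are libraries and red lines are geometric means of 3. The left panel falls to 5.10 at P14 and returns to 28.6 at P90, and the right panel steps from 11.4 at P5 to 26.2 at P14.

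The 5′ arms of miR-1a were barely detected. miR-1a-1-5p, from chromosome 2, had 81, 69 and 53 counts at P1, 30, 114 and 135 at P5, 84, 71 and 98 at P14, and 223, 197 and 140 at P90. miR-1a-2-5p, from chromosome 18, had 1, 13 and 2 counts at P1, 18, 18 and 21 at P5, 5, 0 and 6 at P14, and 17 in each P90 library. Counts of both were highest or near highest at P90, where the libraries were also the deepest, and P5 replicate 1 stood low for miR-1a-1-5p. As shares of counts, miR-1a-1-5p gave an adjusted p of 0.428 and miR-1a-2-5p one of 0.0630 (exact permutation tests). The 3′ arm exceeded the sum of both 5′ arms by geometric means of 90060, 97389, 52300 and 131663 from P1 to P90, with an adjusted p of 0.142 (exact permutation test). The same test without P5 replicate 1 gave an adjusted p of 0.0302.

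The chromosome 2 arm made up most of these few counts. miR-1a-1-5p was 203 of 219 5′ arm counts at P1, or 92.7% (95% exact Clopper-Pearson interval 88.4 to 95.8). It was 279 of 336 at P5, or 83.0% (78.6 to 86.9), and 253 of 264 at P14, or 95.8% (92.7 to 97.9). At P90 it was 560 of 611, or 91.7% (89.2 to 93.7). The intervals pool 3 libraries and cover counting error only, and single libraries ran from 62.5% at P5 to 100% at P14. Over libraries, the ratio of miR-1a-1-5p to miR-1a-2-5p gave an adjusted p of 0.155 (exact permutation test). A share of the 5′ arm counts is not a share of the 3′ arm made at each locus.

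The row miR-1b-5p tracked miR-1a-3p. It was the second most abundant row in each of the 12 libraries, with mean shares of 12.6% ± 1.21 (SD, n = 3) in the newborn, 10.3% ± 1.94 at P14 and 27.5% ± 0.956 in the adult, and 14.6% to 15.5% in the P5 libraries. miR-1a-3p held 1.97 to 2.00 times its counts in the 12 libraries, and this ratio gave an adjusted p of 0.622 between ages (exact permutation test). The miR-1b hairpin lies on the strand opposite to Mir1a-2, and whether reads were counted by strand is not given in the sources used here. Without strand, reads of miR-1a-3p and miR-1b-5p cannot be told apart, so the counts of miR-1b-5p are uncertain and its calls are not separate from those of miR-1a-3p. The other row of that hairpin, miR-1b-3p, which faces miR-1a-2-5p, had 8 to 37 counts per library, and its ratio to miR-1a-2-5p gave an adjusted p of 0.245.

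Against the related Lincmd1 pair, miR-1a and miR-133a stood higher at P90 than at P1, by different courses. miR-206-3p had between 607090 and 845765 counts in each library up to P14 and between 17640 and 24574 in the adult. miR-1a-3p exceeded it by geometric means of 9.02, 12.4 and 6.79 at P1, P5 and P14, and by 1330 at P90 (exact permutation test, adjusted p = 0.00146). The 3 P90 libraries gave 1315, 1178 and 1520, and the highest excess at any earlier age was 14.4. Between P14 and P90 the ratio of miR-206-3p to miR-1a-3p changed by -7.61 (SE 0.23) on the log2 scale, or 196-fold. Of the counts with this seed in these 2 rows, miR-206-3p made up 6.51% to 17.2% in the 9 younger libraries and 0.0755% ± 0.00954 (SD, n = 3) in the adult.

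For the other partner the shift came earlier. miR-133b-3p had between 8624 and 11539 counts in the newborn libraries, and the adult ones held between 3795 and 4748. miR-133a-3p exceeded it by geometric means of 23.0, 46.1, 172 and 212 (exact permutation test, adjusted p = 0.00146). P1, P5 and P14 did not overlap, and P14 and P90 did, with a difference in the ratio of miR-133b-3p to miR-133a-3p of -0.31 (SE 0.17) on the log2 scale against -1.90 (SE 0.17) between P5 and P14. miR-133b-3p made up 4.21% ± 0.725 of the counts of the 2 rows at P1 and 0.473% ± 0.0769 at P90. These 2 rows are close in sequence, and how reads that match both were assigned is not given in the sources used here.

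**Figure D3:**
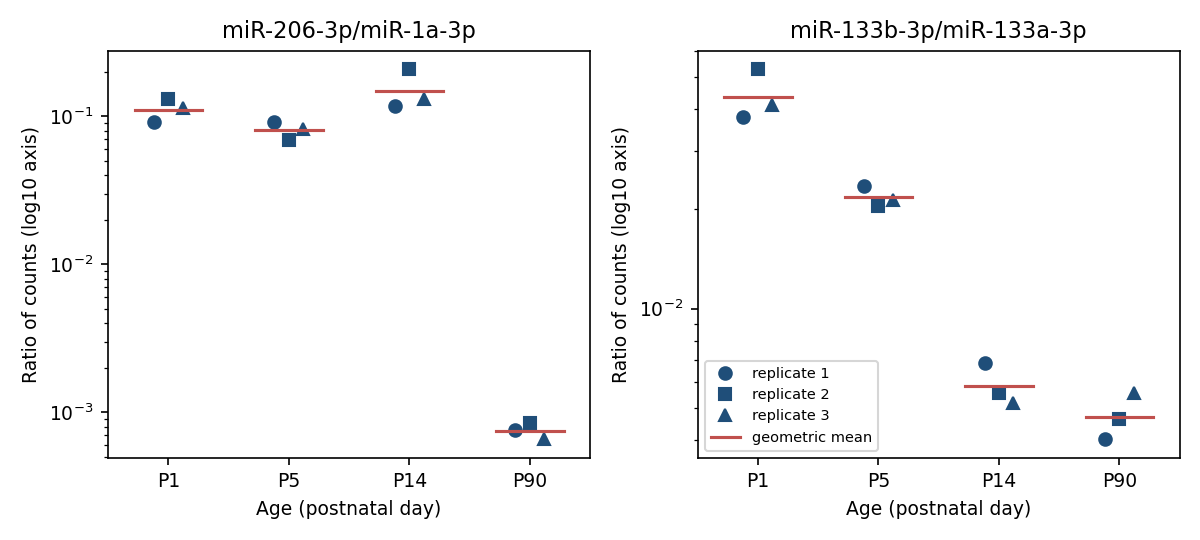
Ratios of counts within each library (y axis, log10 scale) by postnatal age (x axis), for miR-206-3p over miR-1a-3p and miR-133b-3p over miR-133a-3p. Points are libraries and red lines are geometric means of 3. The first ratio changes 196-fold between P14 and P90, and the second steps down at P5 and again at P14.

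Between successive ages, the 6 members were tested with edgeR's quasi-likelihood test in a fit of all 809 miRNAs. In the test of any difference between the 4 ages, 6 of 6 passed, beside 72.4% of all miRNAs. From P1 to P5, 0 of 6 passed an adjusted p of 0.05, beside 4.45% of all miRNAs tested (2.72% higher and 1.73% lower). Unadjusted, 4 of 6 had a p under 0.05 in this comparison, beside 15.2% of all miRNAs, and DESeq2 called 1, miR-133a-3p, beside 11.3%. With the libraries of the 2 ages alone, 3 were called higher, miR-133a-3p, miR-1a-3p and miR-1b-5p, beside 11.7% of all, and the same 3 with no filter on low counts, beside 4.02%. In the fit of all 12 libraries, the log2 fold changes of the 6 members ran from 0.39 to 1.82. Their median was 0.55, against 0.01 over all miRNAs. miR-133a-3p had 0.61 (SE 0.18, adjusted p = 0.0748) and miR-1a-3p 0.55 (SE 0.22, adjusted p = 0.198).

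From P5 to P14, 4 of 6 passed, beside 44.4% of all miRNAs, 2 of them higher (18% of all) and 2 lower (26.3% of all). miR-133a-3p rose by 1.65 (SE 0.19, adjusted p = 4.04e-06) and miR-133a-5p by 0.45 (SE 0.16, adjusted p = 0.0322) on the log2 scale. miR-1a-3p fell by 0.80 (SE 0.22, adjusted p = 0.00728), and the miR-1b-5p row moved with it. The median of the members was -0.31 and that of all miRNAs -0.07. The change of miR-133a-5p was the least stable, with 0.37 (adjusted p = 0.0663) under the relative log expression (RLE) scaling. Its call was also lost when any of P1 replicate 1, P5 replicates 1, 2 or 3, or P14 replicates 1 or 3 was left out, with fold changes of 0.35 to 0.46.

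From P14 to P90, 6 of 6 members were higher, beside 22.4% of all miRNAs called higher, 36.7% called lower and 59.1% in either direction. miR-1a-3p rose by 3.68 (SE 0.24, adjusted p = 1.32e-09), miR-133a-3p by 1.22 (SE 0.18, adjusted p = 2.91e-05) and miR-133a-5p by 0.95 (SE 0.16, adjusted p = 8.29e-05). The scarce arms rose too, miR-1a-1-5p by 2.25 (SE 0.41, adjusted p = 0.000215) and miR-1a-2-5p by 3.27 (SE 1.00, adjusted p = 0.0106). The median of the members was 2.76 and that of all miRNAs -0.55. The count and the median include miR-1b-5p, whose call is not separate from that of miR-1a-3p. Here the scaling set the direction for miR-133a. With library totals alone, the median of all miRNAs was -2.77, miR-133a-3p had -1.02 and miR-133a-5p -1.31, both called lower, and miR-1a-3p kept 1.42. miR-1a-1-5p then had 0.05 (adjusted p = 0.929) and miR-1a-2-5p 1.08 (adjusted p = 0.327). Thus 2 members, miR-1a-3p and the miR-1b-5p row, were called higher (2.22% of all miRNAs) and 2 lower (77.6% of all). With upper-quartile factors 6 members were higher, beside 47.2% of all miRNAs higher and 19.7% lower. A scaling shifts all miRNAs of a comparison together.

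From P1 to P90, 6 of 6 were again higher, beside 25.2% of all miRNAs called higher, 41.2% called lower and 66.4% in either direction. miR-1a-3p rose by 3.44 (SE 0.24, adjusted p = 2.07e-09) and miR-133a-3p by 3.48 (SE 0.20, adjusted p = 1.95e-10), while miR-133a-5p rose by 1.79 (SE 0.16, adjusted p = 6.57e-08). The median was 3.26 for the members and -0.72 for all miRNAs. Here too the members include miR-1b-5p, whose call is not separate from that of miR-1a-3p. With library totals alone the first 2 kept 1.13 and 1.21, and miR-133a-5p had -0.50, called lower. Then 3 members were called higher (4.45% of all miRNAs) and 1 lower (80% of all), and neither miR-1a-1-5p nor miR-1a-2-5p passed. With upper-quartile factors 6 members were higher, beside 48.3% of all miRNAs higher and 23.7% lower. With TMM, miR-1a-2-5p had 3.09 (SE 0.97, adjusted p = 0.0105), which became 2.60 (adjusted p = 0.0524) without P1 replicate 1 and 4.71 without P1 replicate 2. Between P1 and P14, 2 of 6 were higher, beside 20.3% of all miRNAs called higher, 28.8% called lower and 49.1% in either direction: miR-133a-3p by 2.26 (adjusted p = 1.21e-07) and miR-133a-5p by 0.84 (adjusted p = 0.000424). miR-1a-3p had -0.25 (adjusted p = 0.379).

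**Figure D4:**
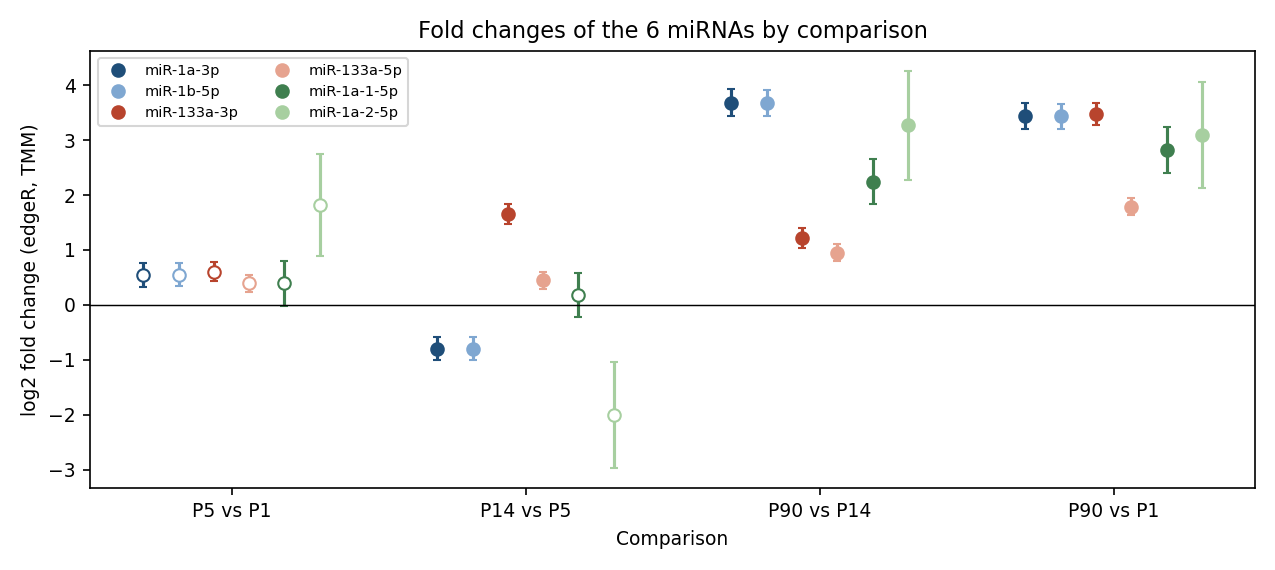
log2 fold changes (y axis) of the 6 miRNAs in 4 comparisons of ages (x axis), from edgeR with TMM scaling. Bars are ± SE and filled points passed an adjusted p of 0.05. Between P5 and P14 miR-1a-3p lies at -0.80 and miR-133a-3p at 1.65, and from P14 to P90 all 6 are above 0.

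**Figure D5:**
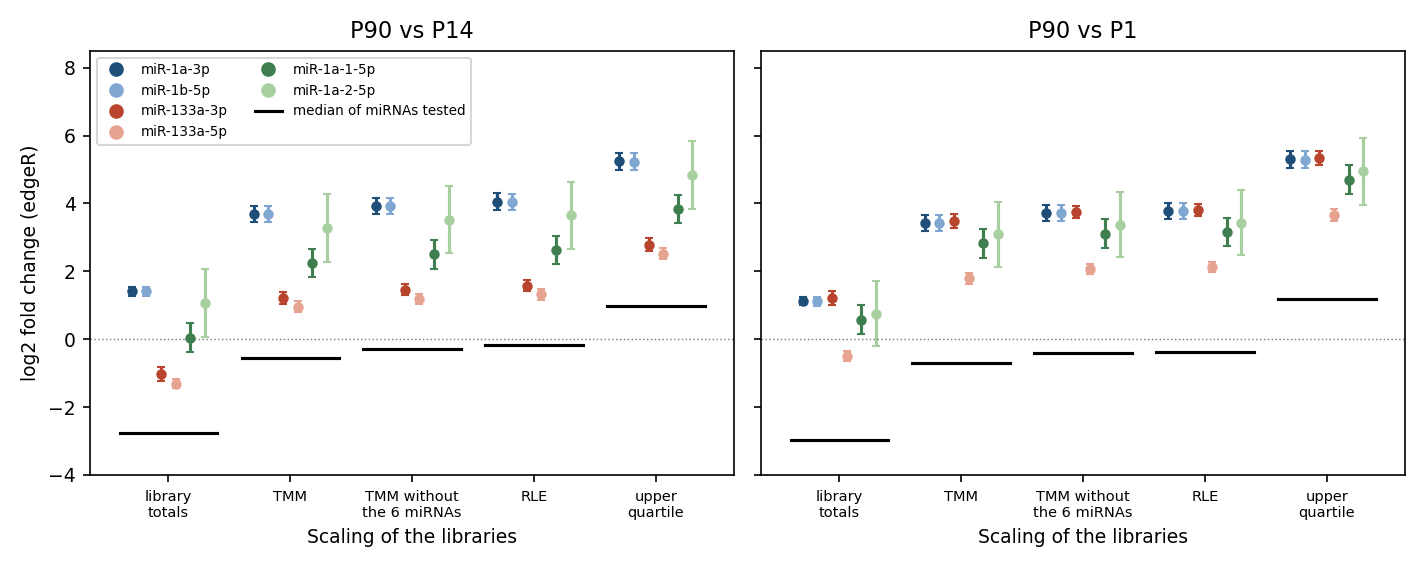
log2 fold changes (y axis, ± SE) of the 6 miRNAs for P90 against P14 and against P1 under 5 scalings of the libraries (x axis). The black line is the median of all miRNAs tested. Both arms of miR-133a lie below 0 with library totals in the P14 comparison, at -1.02 and -1.31, and a change of scaling moves the 6 miRNAs and the black line together.

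Among 13 other muscle miRNAs, a list that includes the myosin gene miRNAs miR-208a, miR-208b and miR-499 and the erythroid and muscle miR-486, 11 could be tested. From P1 to P90, 3 rose, 6 fell and 2 did not pass, beside 25.2% of all miRNAs called higher and 41.2% called lower. The median of the 11 was -3.78, against -0.72 over all miRNAs. miR-486a-5p rose by 2.66 (SE 0.19, adjusted p = 3.48e-09) and miR-378a-3p, an intronic miRNA of the metabolic coactivator gene Ppargc1b, by 1.43 (SE 0.13, adjusted p = 5.82e-08). miR-206-3p fell by 3.78 (SE 0.16, adjusted p = 5.06e-12), and miR-499-5p, from an intron of a slow myosin gene, fell by 3.99 (SE 0.45, adjusted p = 9.2e-07). miR-133b-3p had 0.28 (SE 0.20, adjusted p = 0.234). From P5 to P14, when miR-133a-3p rose, 3 of the 11 rose and 4 fell, beside 18% of all miRNAs called higher and 26.3% called lower. The 3 were miR-486a-5p at 2.35, miR-486b-5p at 2.33 and miR-378a-3p at 1.09. The miR-486a and miR-486b hairpins (Mir486 and Mir3107) overlap on opposite strands, and their 5p rows held near-equal counts, such as 25825 and 26149 in P1 replicate 1. Without strand, the 2 rows may count the same reads, so their rises in both comparisons may not be separate.

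Other cell types' marker miRNAs moved as well. The 2 endothelial markers, miR-126a-3p and miR-126a-5p, summed to 1.20% to 1.30% of counts at P14 and 0.321% to 0.452% at P90. The 2 smooth muscle markers, miR-143-3p and miR-145a-5p, summed to 2.63% to 3.02% at P1 and 2.70% to 3.11% at P5. They summed to 3.49% to 3.87% at P14 and 1.81% to 2.42% at P90. The 2 fibroblast markers summed to 1.25% to 1.65% at P1 and 0.727% to 0.958% at P5. Their sum was 0.481% to 0.539% at P14 and 0.0465% to 0.0805% at P90. The 5 blood markers summed to 0.0634% to 0.104% at P1 and 0.0136% to 0.0250% at P90. Among them, miR-451a, miR-144-3p, miR-142a-3p and miR-223-3p had lower shares at P90 than at P1, without overlap. The share of miR-150-5p was higher at P90 than at P1, also without overlap. It had 410 to 478 counts per library at P1 and 1539 to 3063 at P90. The 2 neuronal markers summed to 0.00477% to 0.0453% and the liver marker miR-122-5p to 0.000510% to 0.0622% over the 12 libraries. These are shares of all counts, of which miR-1a-3p and miR-1b-5p took means of 20.5% and 10.3% at P14. At P90 the 2 rows took 54.8% and 27.5%, so a lower share at P90 need not be a lower amount. Marker shares with these 2 rows left out were not computed. The part of these cell types in the changes of miR-1a and miR-133a was not tested.

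The courses of the 2 partners were alike to different sets of miRNAs. Among 202 miRNAs whose mean over the 12 libraries reached 100 CPM (TMM-normalised counts scaled to a common library size), the log2 CPM of miR-1a-3p was most like that of miR-30e-5p (Pearson's r = 0.994), let-7g-5p (0.988), miR-145a-3p (0.980), miR-186-5p (0.974) and miR-27a-3p (0.965). miR-30e-5p, for example, had mean CPM of 3032, 3851, 2663 and 11136 from P1 to P90, with the dip at P14 and the high at P90 that miR-1a-3p showed. miR-133a-3p was most like miR-28a-5p (0.990), miR-151-5p (0.988), miR-361-5p (0.987), miR-365-3p (0.980) and miR-99a-5p (0.979). miR-28a-5p had mean CPM of 163, 195, 337 and 584, higher at each later age. The r between miR-1a-3p and miR-133a-3p was 0.695. These values describe 12 libraries that fall into 4 ages and share their scaling factors.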

How the data were processed

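Small RNA libraries were made from total RNA of quadriceps with a NEXTflex kit and sequenced. Reads of 10 to 35 nt were kept with cutadapt (v1.18), aligned to GRCm38 with Bowtie2 (v2.4.1) and counted over miRBase miRNAs with featureCounts (v2.0.1) by the authors, whose raw counts per mature miRNA were deposited without normalization. Strand and multimapping options are not given in the sources used here, and no other per-sample column was left aside.

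Ages came from the labels. edgeR (v4.0.16, R 4.3.3; TMM, filterByExpr, Benjamini-Hochberg adjustment over 809 miRNAs) was run on the 12 libraries with age alone, and was tested on simulated data. Shares, and log2 ratios after adding 0.5 counts, were compared with exact permutation tests on the sum of squares between ages, which has no direction. Their p-values were adjusted over 7 shares and 9 ratios. Wilson and Clopper-Pearson intervals came from scipy 1.17.1. The study fitted a likelihood ratio test across ages in DESeq2 (v1.30.1), and DESeq2 (v1.42.0) was an alternative here. Named miRNAs were the 6 members, miR-1b-3p, 13 other muscle miRNAs and marker miRNAs. The 5 miRNAs most correlated with miR-1a-3p and with miR-133a-3p were also named, leaving out the members and miR-1b-3p. Other antisense rows were not removed from that ranking. The members and lists were chosen with earlier results of these data known. Hairpin positions and sequences are from RefSeq (GRCm38.p6), and exons and introns from GENCODE vM39, matched by gene name. Replicate pairs differed by far more than counting error (chi-square per degree of freedom 155 to 1056 over 12 pairs), so none was counted as 1 sample.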

Additional observations from a re-analysis of the deposited data

How the results depend on the processing

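Of 624 log2 fold changes of members under 21 alternatives, 594 kept their side of the threshold, 14 lost and 13 gained a call, and 3 called changes reversed. Some of the 594 changed sign without passing in either fit. For P14 against P1, for example, miR-1a-3p had -0.25 with TMM and 0.06 with upper-quartile factors. The 3 reversals were all under library totals alone: miR-133a-5p (-1.31) and miR-133a-3p (-1.02) for P90 against P14, and miR-133a-5p (-0.50) for P90 against P1. Library totals also ended the calls of miR-1a-1-5p (0.05 and 0.58) and miR-1a-2-5p (1.08 and 0.76) in these comparisons. The fall of miR-1a-3p (-0.99 to -0.53) and the rise of miR-133a-3p (1.5 to 1.93) from P5 to P14 kept their calls in all alternatives. For P90 against P1, miR-1a-3p ran from 1.13 to 5.30 and miR-133a-3p from 1.21 to 5.35. The number of members called from P1 to P5 (0) was 1 with RLE or upper-quartile factors, TMM without the members, or DESeq2, 3 with no filter or with the 2 ages alone, and 0 to 1 with a library left out (1 without P90 replicate 2). From P1 to P14 it was 4 with no filter. The call of miR-133a-5p from P5 to P14 was also lost with no filter (0.34) and with DESeq2 (0.37). The causes of these moves were not tested.

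For shares, miR-1a-2-5p had an adjusted p of 0.0477 without antisense rows in the total, 0.000866 without miR-1a-3p and miR-1b-5p, and 0.00167 to 0.147 with a library left out (passing without P1 replicate 2); miR-1a-1-5p had 0.0125 without miR-1a-3p and miR-1b-5p. With a library left out, the ratio of miR-1a-3p to its 5′ arms gave 0.0302 to 0.257 and that of these arms to miR-133a-5p 0.0264 to 0.277, both passing without P5 replicate 1.

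Replicate numbers did not pair the libraries: 1 of 18 same-number pairs had a correlation over 0.1. The replicate block changed no call of a member in the edgeR fit. With the replicate block the adjusted p was 0.137 for miR-1a-3p over miR-133a-3p and 0.0625 for miR-133a-3p over miR-133a-5p. Within replicate numbers, a share of 0.0625 of the partitions keeps a given age together. The ratio of miR-206-3p to miR-1a-3p, in which P90 lay far apart, still passed under the block. Its adjusted p was at most 0.0156 over 15 alternatives, the block among them (exact permutation tests). Fits with a GC trend, alone or with the block, were not run, since 1 of 6 members had a sequence.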
